A study of Homo sapiens with 83 samples.

Results

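The negative arm of the circadian clock was read out here through its 5 core transcripts, PER1, PER2, PER3, CRY1 and CRY2. They were found by symbol among the 60237 genes quantified by RNA sequencing in 83 libraries from 2 human neuroblastoma cell lines, SHEP (written Shep in the labels) and SKNAS. Both lines constitutively express N-MYC-ER, the oncoprotein N-MYC fused to the part of the estrogen receptor that binds hormone, so that N-MYC acts only once 4-hydroxytamoxifen (4OHT) is given. MYC-ON cells received 4OHT and MYC-OFF cells received ethanol as vehicle, and both were treated with dexamethasone 24 h later. Dexamethasone is a synthetic glucocorticoid that aligns the clocks of the cells in a dish, and circadian time (CT) counts the hours from its addition. SHEP had 2 series of 14 time points in each condition, every 4 h from CT24 to CT76, which made 28 MYC-OFF and 28 MYC-ON libraries. SKNAS had 1 series in each condition, with 14 MYC-OFF libraries and 13 MYC-ON libraries, the latter ending at CT72. All cells thus carried the transgene and all received dexamethasone, and 4OHT was the only agent that differed by design, so that activation of N-MYC and any other action of 4OHT cannot be told apart.

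In the mammalian clock, CLOCK pairs with BMAL1 (the product of ARNTL) and binds E-box elements to switch on the PER and CRY genes. The PER and CRY proteins then gather in a complex that returns to the nucleus and silences CLOCK and BMAL1, until kinases and ubiquitin ligases remove them and a new cycle begins. PER1 is also a direct target of the glucocorticoid receptor, CRY1 is controlled through E-boxes, D-boxes and REV-ERB elements and is known for its late phase, and the CRY2 transcript is the less rhythmic of the cryptochromes in many tissues. MYC proteins bind E-boxes as well, and the study compared clock transcripts in MYC-OFF and MYC-ON cells.

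Motifs of the kind that clock factors bind were searched in the reference sequence. All 5 genes had at least 1 entry, 7 entries in all, among RefSeq promoters of GRCh38.p14 that run from 250 bases before a RefSeq start to 50 bases after it. Each window below is 30 bases, read on the gene's own strand from 5′ to 3′, with the searched motif in capitals.
PER1 E-box, chr17:8152560-8152589, minus strand: agcacccaggtcCACGTGcgcccgtgtgtg
PER2 E'-box, chr2:238288790-238288819, minus strand: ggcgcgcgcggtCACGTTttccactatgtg
CRY1 E'-box, chr12:107093621-107093650, minus strand: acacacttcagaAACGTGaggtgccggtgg
CRY2 E'-box, chr11:45847275-45847304, plus strand: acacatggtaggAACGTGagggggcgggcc
PER1 D-box, chr17:8152416-8152445, minus strand: agtgcccggcaTTATGCAAcccgcctcccc
PER2 D-box, chr2:238288595-238288624, minus strand: cccgctgcggcTTACGTAAccgccgccggc
PER3 D-box, chr1:7784103-7784132, plus strand: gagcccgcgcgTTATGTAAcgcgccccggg

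The E-box searched was CACGTG, which reads the same on both strands and is also the preferred site of MYC proteins. The E'-box searched was CACGTT, read as AACGTG on the other strand, as in CRY1 and CRY2. Distances are to the RefSeq start of each entry, which can differ from the outermost gene end of the annotation given further on, so that the windows of PER1, PER2 and CRY2 lie inside the annotated gene. The PER1 E-box lay 170 bases before that start and the E'-boxes of PER2, CRY1 and CRY2 lay 194, 86 and 186 bases before it. The D-box letters searched were TTATGTAA, TTATGCAA and TTACGTAA on either strand, and they were chosen with the promoters in view. The PER1 and PER3 D-boxes lay 26 and 174 bases before the RefSeq start, and that of PER2 was at the start itself. The PER1 D-box and both PER2 windows fell in annotated exons and the other windows outside them. Of 35116 RefSeq promoters of the same length, 7.26% held the E-box, 5.34% the E'-box and 1.84% a D-box. PER1 was the only member with the full E-box in this window. A match in a window describes letters, not binding, and the windows hold only part of each gene's regulatory sequence.

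In the Gencode 44 annotation of GRCh38, PER1 (ENSG00000179094) lies on chromosome 17 from 8140472 to 8156506 on the minus strand, and PER2 (ENSG00000132326) on chromosome 2 from 238244044 to 238290102 on the minus strand. PER3 (ENSG00000049246) lies on chromosome 1 from 7784291 to 7845177 on the plus strand. CRY1 (ENSG00000008405) lies on chromosome 12 from 106991364 to 107093549 on the minus strand, and CRY2 (ENSG00000121671) on chromosome 11 from 45847118 to 45883248 on the plus strand. The values below are therefore sums over each gene's transcripts.

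The unit is TPM, a transcript's share of all transcripts in a library, which is divided by transcript length and scaled to the same total in every library, so levels can be compared between genes. TPM keeps no read depth, so how deeply a library was read is unknown and no counting error can be attached to a single value. Time points of a series came from 1 experiment. Tests of levels and ratios compare libraries at the same CT. Their p-values therefore measure how the difference between groups varies over time points and, in SHEP, the spread between the 2 series. Fits of rhythm remove the mean and trend of each series, and fits of drift its mean, so their p-values measure the spread that remains. A test on series means measures only the spread between series. In bulk RNA, fewer cells of a kind and less RNA per cell cannot be told apart.

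A few facts of the libraries bear on the results. The median gene level, log2(TPM + 1) over expressed genes, lay between 3.93 and 4.17 in all SHEP libraries. In SKNAS it ran from 2.97 to 4.38 in MYC-OFF and from 2.76 to 4.25 in MYC-ON, with 3 of 14 and 4 of 13 libraries under 3.3, and with 4 and 10 under 3.8. SKNAS results are therefore given with and without those libraries or with the library median as a covariate. Of 10 marker genes of other cell types, 2 (KRT8 of epithelia and CD68 of macrophages) had a mean TPM of at least 1 in both SHEP groups. PTPRC, which encodes the leukocyte antigen CD45, was at 0 in all SHEP MYC-OFF libraries but had a median of 94.5 TPM in SKNAS MYC-OFF and 17.7 TPM in SKNAS MYC-ON, while the T cell gene CD3E was at 0 in all SKNAS libraries. Among markers of neuroblastoma identity, the mesenchymal gene VIM was at least 601 TPM in every library. Genes of the adrenergic identity list also had a mean TPM of at least 1 in each line, so VIM alone assigns no identity.

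PER1 was the most abundant of the 5 transcripts and PER2 and PER3 the least. In SHEP MYC-OFF the order PER1, CRY1, CRY2, PER3, PER2 held within 22 of 28 libraries. In SHEP MYC-ON the leading order, found in 19 of 28 libraries, was PER1, CRY1, PER3, CRY2, PER2. The change of place concerned PER3, which was above CRY2 in 0 of 28 MYC-OFF libraries and in 23 of 28 MYC-ON libraries. In SKNAS the order PER1, CRY1, CRY2, PER2, PER3 held in 9 of 14 MYC-OFF libraries and the order PER1, CRY1, CRY2, PER3, PER2 in 9 of 13 MYC-ON libraries. Some neighbours in the order changed places between libraries of a group. CRY1 was higher than PER1 in 2 of 28 SHEP MYC-OFF and 5 of 28 SHEP MYC-ON libraries. PER2 and PER3 changed places as well, with PER2 the higher in 4 of 28 SHEP MYC-OFF and 11 of 14 SKNAS MYC-OFF libraries.

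**Figure D1:**
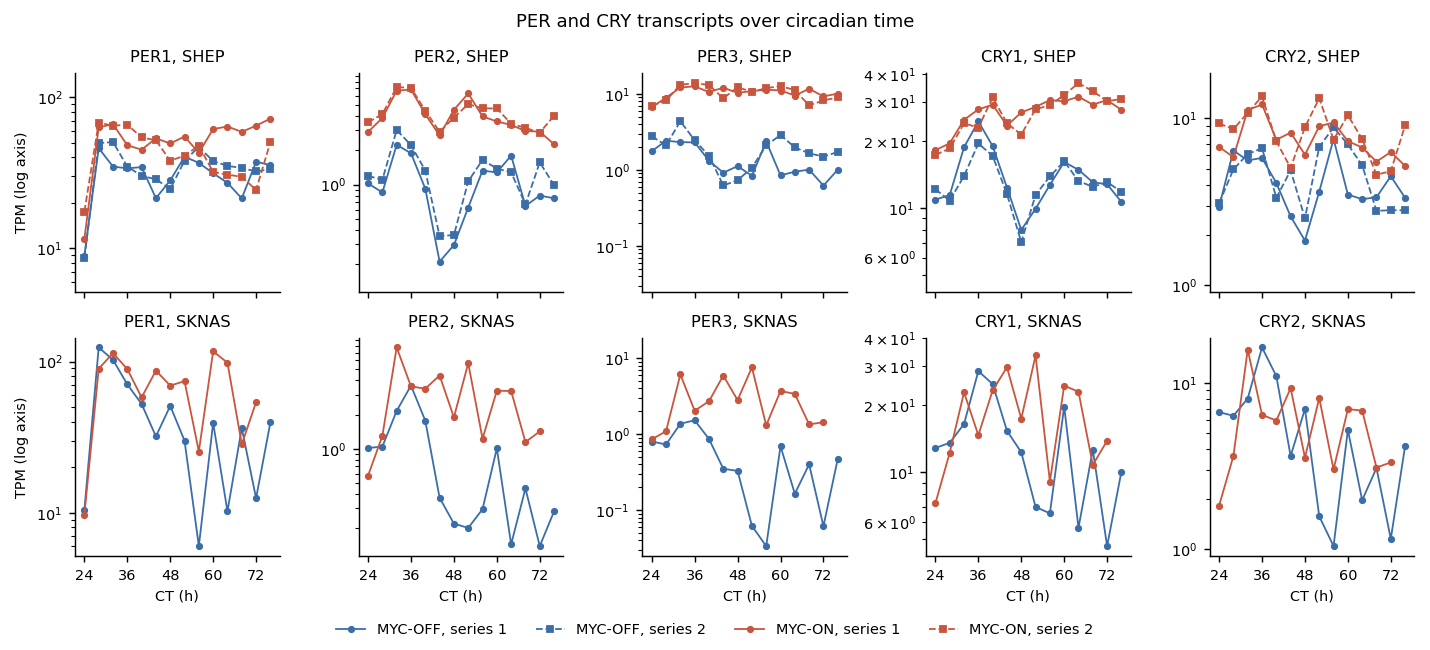
TPM on a log axis against CT in h, for the 5 genes in columns and the 2 lines in rows, with MYC-OFF in blue and MYC-ON in red, and series 1 as solid lines with circles and series 2 as dashed lines with squares. In SHEP the PER3 curves do not meet, CRY1 and PER2 of MYC-OFF cells fall to a trough at CT44 to CT48, and PER1 starts from a low point at CT24 in every series.

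All 5 transcripts were higher in MYC-ON than in MYC-OFF SHEP cells, by 0.54 to 2.14 on the log2(TPM + 1) scale, with PER3 and PER2 changing most and PER1 least. Levels were compared by limma across all expressed genes with CT as a factor, and a gene was called where p, adjusted after Benjamini and Hochberg, was no more than 0.05 and the change no less than 0.15. N-MYC-ER activation was called as raising 33% and as lowering 38.9% of the 14362 genes tested in SHEP, and the median change of all genes was -0.04, against 0.97 for the 5 members. With the mean of each series as 1 replicate, adjusted p by limma ran from 3.92e-04 for PER3 to 0.0148 for PER1. The shares of all genes given above belong to the fit over all libraries and not to this one.

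PER3, the paralog that the core loop depends on least, had 0.621 TPM at the lowest, 1.59 at the median and 4.37 at the highest in SHEP MYC-OFF, and 6.68, 10.7 and 13.8 TPM in MYC-ON. Every MYC-ON library lay above every MYC-OFF library, which 6.11% of genes tested in SHEP shared. The mean rose from 1.69 ± 0.864 to 10.5 ± 1.99 TPM (SD, n = 28 each), a log2 change of 2.14 (SE 0.0840, adjusted p = 1.65e-26 by limma).

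PER2, which with PER1 forms the core of the repressor complex, ranged from 0.210 to 3.02 TPM in SHEP MYC-OFF (median 1.08) and from 2.26 to 7.21 TPM in MYC-ON (median 3.93). It was higher in MYC-ON at the same CT of the same series in 28 of 28 pairs, and 21 MYC-ON libraries exceeded the highest MYC-OFF library. The log2 change was 1.28 (SE 0.0623, adjusted p = 5.00e-23 by limma).

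PER1 ranged from 8.61 to 50.6 TPM in SHEP MYC-OFF (median 34.3) and from 11.6 to 72.2 TPM in MYC-ON (median 51.2). Its groups overlapped, with 14 MYC-ON libraries above the highest MYC-OFF library, and 24 of 28 pairs were higher in MYC-ON. The log2 change of 0.54 (SE 0.0857, adjusted p = 2.27e-07 by limma) was 0.76 in series 1 alone and 0.33 in series 2 alone, called in each.

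CRY1, the stronger repressor of the cryptochrome pair, ranged from 7.03 to 24.5 TPM in SHEP MYC-OFF (median 12.7) and from 17.3 to 36.3 TPM in MYC-ON (median 28.1). CRY2 ranged from 1.85 to 8.84 TPM in MYC-OFF (median 3.87) and from 4.60 to 13.6 TPM in MYC-ON (median 7.48). Both rose, CRY1 in 28 and CRY2 in 26 of 28 pairs, and 19 and 11 MYC-ON libraries lay above the highest MYC-OFF library. The log2 changes by limma were 0.97 for CRY1 (SE 0.0607, adjusted p = 5.50e-19) and 0.75 for CRY2 (SE 0.0821, adjusted p = 2.80e-11).

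In SKNAS the 3 PER transcripts were called as higher in MYC-ON and the CRY transcripts were not. N-MYC-ER activation was called as raising 13.7% and lowering 34.4% of 13886 genes tested, and the median change of all genes was -0.29. PER3 ranged from 0.0337 to 1.52 TPM in MYC-OFF (median 0.436) and from 0.853 to 7.55 TPM in MYC-ON (median 2.71), and was higher in 13 of 13 pairs. PER2 ranged from 0.139 to 3.6 TPM (median 0.409) and from 0.581 to 7.80 TPM (median 3.22), and was higher in 11 of 13 pairs. PER1 ranged from 6.01 to 124 TPM (median 37.8) and from 9.69 to 116.9 TPM (median 74.2). Of the MYC-ON libraries, 8 of 13 lay above the highest MYC-OFF library for PER3, 3 for PER2 and 0 for PER1, and no member had groups that did not overlap, against 2.32% of genes tested.

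The log2 changes in SKNAS by limma were 1.27 for PER3 (SE 0.222, adjusted p = 2.76e-04), 1.00 for PER2 (SE 0.216, adjusted p = 0.00144) and 0.88 for PER1 (SE 0.277, adjusted p = 0.0167). CRY1 had a change of 0.45 with a 95% interval from -0.06 to 0.95 (adjusted p = 0.132), and CRY2 had 0.21 with an interval from -0.38 to 0.79 (adjusted p = 0.555). These intervals hold changes as large as several called in SHEP, so they do not show that the CRY transcripts stayed level.

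The SKNAS values moved with the library median. Over the libraries of each SKNAS group, Pearson's r between a member's log2(TPM + 1) and the library median was 0.56 to 0.88, against -0.39 to 0.56 in SHEP, as a description of libraries that share a series. With the library median as a covariate all 5 members were called in SKNAS, CRY1 at 0.97 (adjusted p = 5.72e-05) and CRY2 at 0.83 (adjusted p = 6.80e-04), beside 28.3% of genes called higher. After median-of-ratios rescaling they were called at 0.80 and 0.54 (adjusted p = 3.81e-04 and 0.0322), beside 27.6% of genes. Without the libraries under 3.3 the PER1 change was 0.61 (adjusted p = 0.0646) and no longer called, while PER2 (1.13) and PER3 (1.43) were, beside 12.5% of genes. The summed level of the 10 markers of other cell types was 297 to 682 TPM in SKNAS MYC-OFF and 154 to 257 TPM in MYC-ON. Without KRT8 and CD68 the sum was 13.4 to 133 and 3.68 to 64.6 TPM. The part of these markers in the result was not tested.

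**Figure D2:**
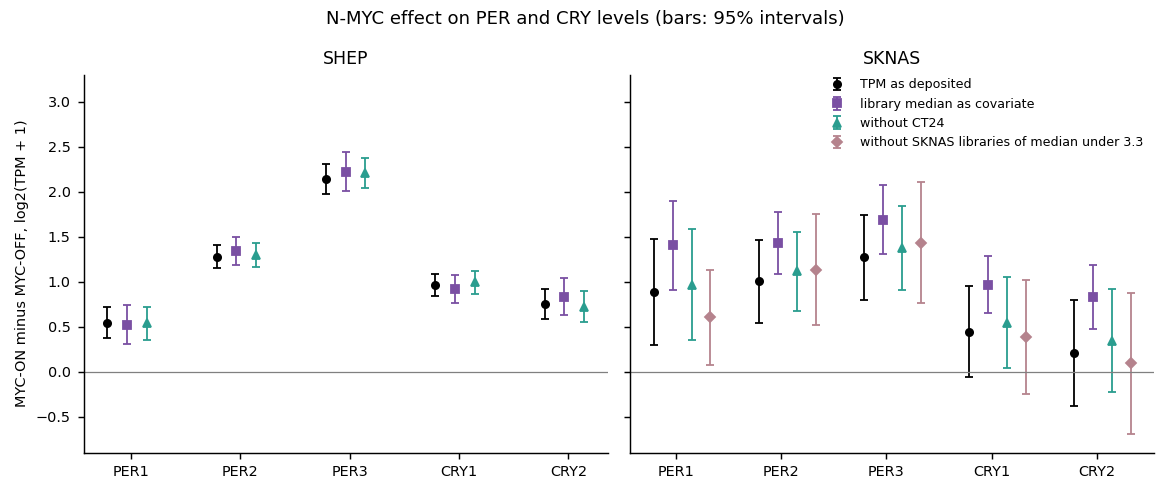
MYC-ON minus MYC-OFF in log2(TPM + 1) for each gene, with SHEP on the left and SKNAS on the right, and bars for 95% intervals. Black circles are TPM as deposited, purple squares a fit with the library median as a covariate, green triangles a fit without CT24 and pink diamonds a fit without SKNAS libraries of median under 3.3. All SHEP intervals lie above 0, and in SKNAS the CRY1 and CRY2 intervals clear 0 with the covariate.

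The size of the change differed between the lines for PER3. The effect in SKNAS minus that in SHEP was -0.87 (SE 0.187, 95% interval -1.25 to -0.50, adjusted p = 1.12e-04 for the line by condition interaction in limma over all 83 libraries), beside 16.1% of 14870 genes called as lower and 5% as higher in this test at a difference of at least 0.66, and the median of all genes was -0.22. On log2(TPM + 0.1), where low values are compressed less, it was -0.33 (adjusted p = 0.393), and with the library median as a covariate it was -0.51, neither called. After median-of-ratios rescaling it was -0.57 and without SKNAS libraries under 3.8 it was -0.17, again not called. PER2 (-0.28, adjusted p = 0.148), PER1 (0.34, adjusted p = 0.183), CRY1 (-0.52, adjusted p = 0.0103) and CRY2 (-0.55, adjusted p = 0.0277) did not reach the threshold of size or of p. PER1 reached it with the covariate, at 0.76, and CRY2 without libraries under 3.3, at -0.66. In MYC-OFF cells, PER3 was lower in SKNAS than in SHEP by 0.77 (SE 0.0997, adjusted p = 2.82e-08), beside 31.8% of 14926 genes lower and 18.7% higher, and the other 4 members differed by -0.27 to 0.05 and were not called. PER3 was not called in that comparison with the library median as a covariate, nor without the SKNAS libraries under 3.3, nor tested against SHEP series 1 alone, where its mean fell under 1 TPM.

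Since the PER transcripts changed unequally, their balance within each library was compared. PER1 made up 91.3 ± 6.03% of the summed PER transcripts in SHEP MYC-OFF and 75.3 ± 7.15% in MYC-ON (SD, n = 28 each). PER3 went from 5.25% to 17.6% and PER2 from 3.48% to 7.07% of the sum. In SKNAS, PER1 held 96.2 ± 3.61% in MYC-OFF (n = 14) and 91.7 ± 3.49% in MYC-ON (n = 13). PER1 thus remained the main PER transcript of every group, and the share of the others was larger in MYC-ON. Of the CRY sum, CRY1 held 75.2% in MYC-OFF and 76.7% in MYC-ON of SHEP, and 73.7% in MYC-OFF and 76.4% in MYC-ON of SKNAS.

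A ratio within a library is free of the library's scaling. The log2 ratio of PER3 to PER1 went from -4.37 to -2.15 in SHEP and was higher in MYC-ON in 28 of 28 pairs, by 2.23 on average. That of PER2 to PER1 went from -4.96 to -3.50 and was higher in 27 of 28 pairs, by 1.46. For both, a two-sided paired permutation test gave p = 1e-05, the smallest that 100000 resamples can give, and adjusted p = 4e-05 over the 8 ratios tested. In SKNAS, PER3 to PER1 rose by 1.95 in 13 of 13 pairs (exact permutation test, p = 0.000244, the smallest possible, adjusted p = 6.51e-04), and PER2 to PER1 by 1.14 in 10 of 13 pairs (exact permutation test, adjusted p = 0.0107). With 1 TPM added to each term the SKNAS differences were 0.39 and 0.12 and neither was called.

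The ratio of CRY1 to CRY2 did not change detectably, with differences of 0.12 in SHEP (15 of 28 pairs higher, permutation test, adjusted p = 0.370) and 0.17 in SKNAS (7 of 13 pairs, exact permutation test, adjusted p = 0.388). Summed PER over summed CRY differed by -0.15 in SHEP (13 of 28 pairs higher, permutation test, adjusted p = 0.195) and by 0.55 in SKNAS (9 of 13 pairs, exact permutation test, adjusted p = 0.0336). In SHEP that difference was -0.37 in series 2 alone and 0.06 in series 1 alone, and in SKNAS it lost its call without CT24 or without the libraries under 3.3.

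**Figure D3:**
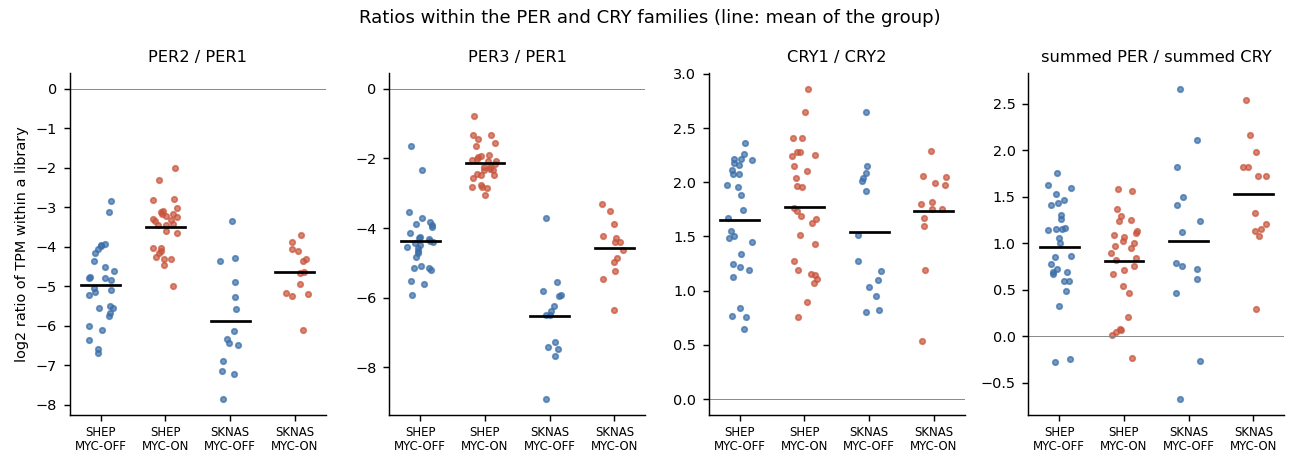
Log2 of the TPM ratio within each library, 1 point per library and a line for the group mean, with MYC-OFF in blue and MYC-ON in red. PER2 and PER3 stand higher against PER1 in MYC-ON of both lines, while the values of CRY1 to CRY2 overlap in all 4 groups.

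PER1 had a low value at CT24, the first time point sampled after dexamethasone. It was 8.96 and 8.61 TPM in the SHEP MYC-OFF series, 11.6 and 17.5 TPM in the SHEP MYC-ON series and 10.4 and 9.69 TPM in SKNAS MYC-OFF and MYC-ON, and it was the lowest value of the series in 5 of 6. By CT28 it was higher by 2.24, 2.40, 2.35 and 1.89 on the log2 scale in the SHEP series and by 3.45 and 3.08 in SKNAS. The mean rise of 2.57 ranked 2 of 14870 genes, behind TSC22D3 at 2.60, and FKBP5 ranked 4 at 1.89. TSC22D3 and FKBP5 are textbook glucocorticoid target genes, and in 6 of 6 series CT24 was their lowest point. The other glucocorticoid targets of the list varied. CT24 was lowest in 6 of 6 series for KLF9 (mean rise 1.34) and in 5 for CEBPD (0.92) and MT2A (0.84). It was lowest in 3 for DUSP1 (0.75) and in 2 for ERRFI1 (0.96) and PDK4 (0.35). It was lowest in 1 for ZBTB16 (0.03) and in 0 for SGK1 (0.14), which was higher at CT28 in 2 of 6 series. A mean rise of at least 1 was found for 0.195% of genes, and CT24 was lowest in all 4 SHEP series for 0.451%.

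The other members had mean rises of 0.12 to 0.30 between those time points. This comparison was chosen after the values were seen and carries no test, and CT24 libraries share a position in time, so a cause was not tested. Results on rhythm are therefore given with and without CT24.

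**Figure D4:**
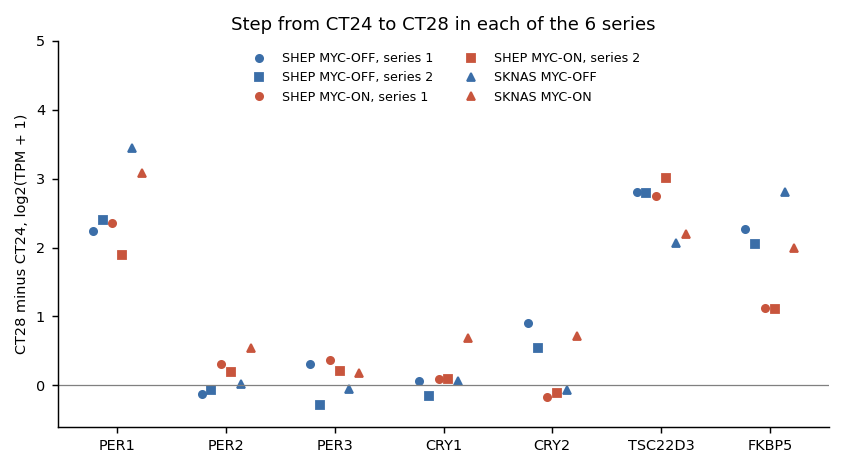
Difference in log2(TPM + 1) between CT28 and CT24 in each of the 6 series, for the 5 members and the glucocorticoid targets TSC22D3 and FKBP5, with MYC-OFF in blue and MYC-ON in red and 1 symbol per series. PER1, TSC22D3 and FKBP5 rise by more than 1 in all series, and the other members lie on both sides of 0, from -0.29 to 0.91.

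Rhythm was measured by a cosine of 24 h fitted to log2(TPM + 1), with a mean and a linear trend for each series, and tested by limma across all expressed genes. In SHEP MYC-OFF cells CRY1 was the member with the clearest rhythm, with an amplitude of 0.39 ± 0.0571 (SE) that peaked at 12.8 ± 0.593 h of the 24 h cycle. It ranked 4 of 14264 genes (adjusted p = 0.00804), where 0.0911% of genes were called. Its highest value was at CT36 and its lowest at CT48 in both series, 24.5 and 7.98 TPM in series 1 and 19.5 and 7.03 TPM in series 2, with a return to 16.1 and 16.2 TPM at CT60. In each series alone CRY1 was not called, with unadjusted p of 4.75e-04 and 0.00379 and adjusted p of 0.459 and 0.697 in limma. Around the mean TPM its swing was 29.7%, against a median of 4.53% for all genes.

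PER2 followed with an amplitude of 0.43 ± 0.0791, a peak at 10.3 ± 0.687 h and the widest relative swing of the members, 54.9% of its mean (rank 16, adjusted p = 0.0557). Its maximum was at CT32 and its minimum at CT44 in both series, 2.23 and 0.210 TPM in series 1 and 3.02 and 0.352 TPM in series 2. CRY2 had an amplitude of 0.48 ± 0.0894 and a peak at 9.57 ± 0.686 h (41.3%, rank 19, adjusted p = 0.0561). Both lay just past the adjusted threshold, and PER2 was called without CT24, at 0.50 (adjusted p = 0.0492), beside 0.0491% of genes. CRY2 without CT24 had an amplitude of 0.45 and moved away from the threshold (adjusted p = 0.232, limma).

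PER1 and PER3 had weaker evidence in SHEP MYC-OFF. PER1 had an amplitude of 0.50 ± 0.125 and a peak at 8.94 ± 0.902 h (29.4%, rank 131, unadjusted p = 0.00217, adjusted p = 0.235, limma). PER3 had 0.32 ± 0.0846 and a peak at 9.32 ± 0.956 h (37.2%, rank 176, unadjusted p = 0.00347, adjusted p = 0.278, limma). An unadjusted p under 0.05 was found for all 5 members and for 10.4% of genes. Without CT24, PER1 had a smaller amplitude of 0.30 ± 0.0614 and an earlier peak at 7.23 h (unadjusted p = 2.28e-04, limma).

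In SHEP MYC-ON cells no member passed the adjusted threshold, where 0.021% of genes did. Amplitudes were 0.35 ± 0.135 for PER1, 0.34 ± 0.0680 for PER2, 0.24 ± 0.0564 for PER3, 0.17 ± 0.0325 for CRY1 and 0.32 ± 0.0778 for CRY2. Adjusted p by limma was lowest for CRY1 (0.0939, rank 11 of 14261) and PER2 (0.124, rank 23) and highest for PER1 (0.462). Without CT24 adjusted p by limma was 0.283 for CRY1, 0.376 for PER2 and 0.712 for PER1. Unadjusted p was under 0.05 for all 5 and for 10.7% of genes, with PER1 just inside at 0.0483, and without CT24 PER1 had an amplitude of 0.13 ± 0.0710, a swing of 8.71% and p = 0.204. Relative swings were 18.1%, 30.4%, 17.5%, 11.6% and 25.4% of the mean for PER1, PER2, PER3, CRY1 and CRY2, each less than in MYC-OFF, and the median of all genes was 5.37%.

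The 4 SHEP series, each fitted alone, gave the same order of phase at its late end. CRY1 peaked last in 4 of 4 series, at 13 and 12.6 h in MYC-OFF and 12.7 and 13.8 h in MYC-ON. Its standard errors were 0.739 to 1.21 h, so its order against PER3 was not resolved in MYC-ON series 1. The gap to the next member was 2.23, 2.49, 0.73 and 2.48 h, and it shrank to 0.06 h in MYC-ON series 1 without CT24, where PER3 was next. PER1 peaked at 8.38 to 9.88 h, PER2 at 9.43 to 10.8 h and CRY2 at 8.33 to 10.8 h, with standard errors of 0.663 to 2.48 h, so their order was not resolved. PER3 peaked at 8.58 and 9.79 h in MYC-OFF and at 12 and 11.3 h in MYC-ON, with standard errors of 0.987 to 1.75 h.

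Amplitude was larger in MYC-OFF than in MYC-ON of the same series in 2 of 2 series for every member, with and without CT24. For CRY1 it was 0.44 and 0.34 in MYC-OFF against 0.15 and 0.20 in MYC-ON, and for PER2 0.44 and 0.43 against 0.29 and 0.38. In the 24 h fit the test of the difference itself did not pass for any gene after adjustment in SHEP. Unadjusted p was under 0.05 for 4.94% of genes (709 of 14362, limma), and CRY1 had p = 0.00787 and adjusted p = 0.954. The other 4 members had unadjusted p of 0.243 to 0.688 in the same test. Without CT24 unadjusted p by limma was 0.00437 for CRY1, 0.0547 for PER3, 0.0986 for PER2, 0.203 for PER1 and 0.688 for CRY2. Adjusted p was 0.972 or more for every member in that fit. On log2(TPM + 0.1) PER2 had unadjusted p = 0.0727 and adjusted p = 0.949 in limma. With a period of 26 h the lowest adjusted p of all genes by limma was 0.00813, and the lowest of the members was 0.779, for CRY1. These data therefore gave a smaller CRY1 swing on the log scale in both series without a difference that held across all genes.

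**Figure D5:**
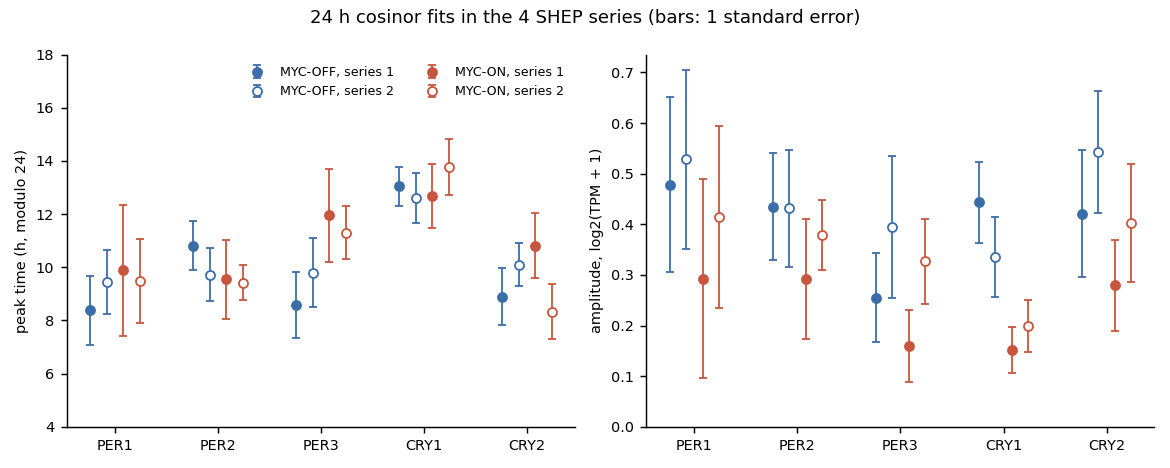
Peak time in h modulo 24 on the left and amplitude in log2(TPM + 1) on the right, from cosines of 24 h fitted to each SHEP series alone, with MYC-OFF in blue and MYC-ON in red, filled circles for series 1 and open circles for series 2, and bars of 1 standard error. CRY1 peaks latest in each series, at 12.6 to 13.8 h, and each member's MYC-OFF amplitude lies above that of MYC-ON in the same series.

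The clock genes that oppose or precede this arm gave context for the phases in SHEP MYC-OFF. ARNTL, whose protein drives the arm, peaked at 19.3 ± 0.666 h (SE), NR1D1 and NR1D2, which encode the REV-ERB repressors, at 3.41 ± 0.799 and 3.43 ± 0.567 h, and TEF, a D-box activator, at 7.22 ± 0.507 h. The PER transcripts and CRY2 were fitted at 8.94 to 10.3 h and CRY1 at 12.8 h, all with CT24, as was TEF. Without CT24 the PER1 peak was at 7.23 ± 0.759 h, and TEF was not fitted in that way. In MYC-ON the fitted peaks were 17.7 ± 1.61 h for ARNTL, 4.68 ± 1.17 h for NR1D1 and 10.1 ± 0.836 h for TEF.

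In SKNAS no member passed the adjusted threshold, and neither did any other gene in limma. Unadjusted p was under 0.05 for 0.446% of genes in MYC-OFF and 0.344% in MYC-ON. PER2 and PER3 had a mean under 1 TPM in SKNAS MYC-OFF and were not tested there; without the filter on low values their amplitudes were 0.45 and 0.21 and not called. CRY1 had an amplitude of 0.44 ± 0.20 and a peak at 14.3 ± 1.84 h in SKNAS MYC-OFF (unadjusted p = 0.123, limma). With the library median as a covariate it had 0.44 ± 0.0704 and a peak at 13 ± 0.66 h, rank 1 of 14119 genes (unadjusted p = 1.55e-04, adjusted p = 0.976, limma). That phase lay next to the SHEP MYC-OFF value of 12.8 h, but it failed correction. In SKNAS MYC-ON the amplitudes were 0.22 to 0.58 with unadjusted p of 0.202 to 0.737 in limma. With the library median as a covariate CRY1 had 0.22 ± 0.0751 there and a peak at 17.4 ± 1.19 h (unadjusted p = 0.0396, limma). In that fit unadjusted p was 0.0504 for CRY2, 0.0805 for PER2, 0.362 for PER1 and 0.735 for PER3. Each member had adjusted p = 0.971 in it. A change of rhythm with N-MYC-ER activation passed for no gene in SKNAS on TPM as deposited with the filter on low values. There 0.526% of genes were at an unadjusted p under 0.05 and members at 0.771 to 0.986 in limma. With the library median as a covariate CRY1 had unadjusted p = 0.00274 (adjusted p = 0.914, limma). Without libraries under 3.3 CRY1 had unadjusted p = 0.0262 (adjusted p = 0.624, limma). The other members had unadjusted p of 0.496 to 0.886 and of 0.381 to 0.688 in these 2 limma fits.

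A damped oscillator was also fitted, which searches the period and lets the swing shrink or grow, after the kind of model the study used. A gene was called at a period of 20 to 28 h, and since the period was searched its p is too small and only the share of all genes gives a scale. In SHEP MYC-OFF it called 4 members, beside 14% of all genes. The fitted periods were 24.5 h for CRY1 and CRY2, 26.5 h for PER2 and 28 h for PER3, the last at the edge of the range. PER1 was fitted with a period of 23.5 h but with the steepest damping allowed, and without CT24 it was called at 25 h. CRY1 had the best fit of the 4, which held 75.2% of its variance.

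In SHEP MYC-ON the oscillator called PER3 at 23 h, CRY1 at 24.5 h and CRY2 at 22 h, beside 11.8% of all genes, and put PER2 at 19.5 h, just outside. Without CT24 the PER3 call was lost, with a fitted period of 21.5 h, and in series 1 alone PER3 was put at 52 h, whereas CRY1 and CRY2 were called in both. On the log2 scale PER2 was called at 20.5 h. In SKNAS MYC-OFF it called only CRY1, at 23.5 h, beside 4.99% of genes. In SKNAS MYC-ON it called no member, beside 3.58% of genes, with fitted periods of 10.5 to 15 h. CRY1 was thus the member called in 3 of 4 groups with a period between 23.5 and 24.5 h, although the SKNAS MYC-OFF call was lost on the log2 scale.

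Levels also drifted over the 52 h of sampling. In SHEP MYC-ON, CRY1 rose by 0.31 per 24 h on the log2 scale (adjusted p = 8.39e-08 by limma), where 20.4% of genes rose and 36.2% fell. PER2 fell by 0.19 (adjusted p = 0.0198) and CRY2 fell by 0.19 (adjusted p = 0.0430) in the same group. CRY1 was at 18.2 and 17.3 TPM at CT24 and reached its highest value at CT64 in both series, 31.6 and 36.3 TPM. No member tested had a called drift in SHEP MYC-OFF, where 5.68% of genes rose and 10.1% fell, or in either SKNAS group, where at most 0.015% of genes rose and 0.0299% fell. PER2 and PER3 were under the filter on low values in SKNAS MYC-OFF and not tested there. In SHEP MYC-ON, PER2 and CRY2 were called in neither series alone nor after median-of-ratios rescaling, whereas CRY1 was called in both series. In series 1 alone PER1 rose by 0.52 in MYC-ON (adjusted p = 0.0492) and PER3 fell by 0.35 in MYC-OFF (adjusted p = 0.0282, limma). CRY2 lost its call without CT24, at -0.17 (adjusted p = 0.129), and CRY1 kept its call at 0.29.

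Genes that act with the PER and CRY proteins were counted from lists of known roles. Of the positive arm, ARNTL (-2.03) and ARNTL2 (-0.24) fell in SHEP MYC-ON and none of the 3 tested rose. Of the stabilising loop, 3 of 3 rose, with NR1D1 at 2.63 and NR1D2 at 0.44. Of the D-box factors, DBP rose by 0.89 and NFIL3, a D-box repressor, fell by 0.88, with 2 of 3 higher and 1 lower. Of the other E-box repressors, BHLHE41 (1.08) rose and BHLHE40 (-0.48) was among the 2 of 3 that fell. Median changes were -0.24, 0.44, 0.81 and -0.38 in these lists, against 0.97 in the PER and CRY members.

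The machinery that modifies and removes PER and CRY proteins had calls in each direction, against 33% of all genes called higher and 38.9% called lower in SHEP. Of 12 kinases and phosphatases of PER, 4 rose and 4 fell, with PPP1CB (-0.81) and CDK5 (-0.75) changing most. Of 9 genes of the ubiquitin system, 5 rose and 3 fell, with the pseudogene FBXL21P at -1.64 and MDM2, a ligase of PER2, at 0.65. Of 4 CRY kinases 2 rose, PRKDC by 0.62 and PRKAA2 by 0.24, and 2 fell. Of 11 partners of the PER complex 4 rose and 3 fell, with HDAC1 at -0.56. The medians of these 4 lists were 0.02, 0.16, 0.01 and 0.01, near the -0.04 of all genes.

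Of 8 glucocorticoid targets tested in SHEP, 3 were higher and 3 lower in MYC-ON, with TSC22D3 at 1.49 and MT2A at -1.59, near the shares of all genes. Of 6 genes of the cAMP and immediate early response, 1 was higher (ATF3, 0.94) and 2 were lower, JUN by -0.36. TSC22D3, which stood next to PER1 in the rise after CT24, was higher in MYC-ON in 28 of 28 pairs. Of the identity markers, HAND2 was 1 of 2 adrenergic genes tested and rose by 0.72, 2 of 8 mesenchymal genes rose (PRRX1, 1.61) and 5 fell (FN1, -2.24), and CD68 fell by 0.96, 1 of 2 tested among markers of other cell types. The summed level of those 10 markers was 573 to 1304 TPM in SHEP MYC-OFF and 503 to 1000.0 TPM in MYC-ON. Nearly all of it was KRT8 and CD68, without which the sum was 0.156 to 1.63 and 0.134 to 1.32 TPM. The part of these markers in the results was not tested.

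In SKNAS the positive arm fell in 3 of 4 genes tested, the stabilising loop rose in 3 of 5 and fell in 1, the D-box factors split 2 higher and 1 lower of 3, and the other E-box repressors rose in 2 of 3. ARNTL fell by 2.18 and NR1D1 rose by 2.51 in that line. BHLHE40 rose by 1.03 in SKNAS, the opposite of its direction in SHEP. Of the kinases and phosphatases 0 rose and 4 of 12 fell, of the ubiquitin system 2 rose and 2 of 9 fell, of the CRY kinases 2 of 3 fell, and of the complex partners 2 rose and 2 of 11 fell. With the library median as a covariate these counts were 3 up and 3 down for the kinases and phosphatases, 3 and 1 for the ubiquitin system, 0 and 0 for the CRY kinases and 5 and 1 for the partners, so the balance of these 4 lists depended on the scaling. Of 9 glucocorticoid targets 1 rose and 5 fell, and 2 of 5 genes of the cAMP and immediate early response fell. All 5 adrenergic genes and all 3 other cell type markers tested, and 4 of 8 mesenchymal genes, fell. EPCAM, an epithelial marker that was under the filter and not tested, was at 0 to 0.347 TPM in SKNAS MYC-OFF and 0.372 to 2.46 TPM in MYC-ON, higher in 13 of 13 pairs. The counts on TPM as deposited stand against 13.7% of genes called higher and 34.4% called lower in SKNAS. Those with the covariate stand against 28.3% called higher.

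The genes whose time course was most like each member's were found over the 4 SHEP series, by the mean of Pearson's r after the mean and trend of each series had been removed, among 14361 genes. These r are over 14 points of a series and are given as descriptions. PER2 and PER3 were among each other's nearest genes (0.68), and both had TEF (0.74 and 0.67) and CIPC (0.75 and 0.65) beside them. CIPC encodes a repressor that binds CLOCK. The nearest genes of CRY2 were PER2 (0.64), PER3 (0.58) and SNN (0.57).

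The nearest genes of CRY1 and PER1 were of other kinds. Those of CRY1 were MCM6 (0.72), DSN1 (0.68) and PCNA (0.68), of which MCM6 and PCNA act in DNA replication and DSN1 at the kinetochore, and its r with PER2 was 0.62. The nearest genes of PER1 were TSC22D3 (0.89), ABTB2 (0.86) and ABLIM3 (0.85), and without CT24 these fell to 0.68, 0.62 and 0.30. The r of PER1 with CRY1 was 0.24 with CT24 and -0.13 without it. The genes least like each member were PDP1 for PER1 (-0.86), HINT3 for PER2 (-0.55), LURAP1L-AS1 for PER3 (-0.52), AXL for CRY1 (-0.64) and BNIP1 for CRY2 (-0.56).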

How the data were processed

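Polyadenylated RNA was sequenced in 83 libraries. The authors quantified paired-end reads with Salmon 1.3.0, per the submitters' processing notes, and summed transcripts to genes with Tximport and Gencode annotation; the values deposited are TPM, which sum to 1000000 in each library. Salmon shares reads between similar transcripts by estimate. Of the symbols, 961 repeated an earlier entry, none of them a member.

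Genes with a mean of at least 1 TPM in the samples of a fit were tested on log2(TPM + 1) with limma 3.58.1 in R 4.3.3, as TPM are not counts and the count model named in the study's methods could not be used. Cosines of 24 h were fitted in the same way. Ratios were tested by paired permutation of same-CT differences in Python 3.11.15. A damped oscillator was fitted by least squares to detrended TPM, for genes above 0 in at least 70% of libraries, and called where the adjusted p was under 0.05 (SHEP) or 0.1 (SKNAS). Scripts were tested on simulated data. Alternatives were another pseudocount, no filter, median-of-ratios rescaling, the library median as covariate, single series, other periods, and leaving out SKNAS libraries of low median.

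The members and the lists of other genes were chosen with earlier results of these data known. Named genes were the 5 members, the 2 of each list that changed most in SHEP, and for likeness the nearest 3 genes and the farthest 1; a gene that the rule names is not reported here. Further genes (PTPRC, CD3E, EPCAM, VIM, KRT8, TEF and FKBP5, and the SKNAS values given by name) were named after their values were seen. The same holds for KLF9, CEBPD, DUSP1, ERRFI1, PDK4, ZBTB16 and SGK1. A further line and a repeat SKNAS series belong to the study and are not analysed here. No protein sequences were used.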

Additional observations from a re-analysis of the deposited data

Results flagged for a closer look

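The effect of N-MYC-ER activation on PER3 differed between the lines by a test of the difference itself: it was smaller in SKNAS than in SHEP by 0.87 on the log2(TPM + 1) scale (SKNAS minus SHEP -0.87, adjusted p = 1.12e-04, limma interaction). Its direction was the same in each line, higher in 28 of 28 pairs in SHEP and 13 of 13 in SKNAS. With 0.1 in place of 1 TPM added before the log, the difference was -0.33 and not called. It was also not called with the library median as a covariate (-0.51), after median-of-ratios rescaling (-0.57) or without SKNAS libraries of median under 3.8 (-0.17), and the median difference of all genes was -0.22. The median of PER3 in SKNAS MYC-OFF was 0.436 TPM.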

How the results depend on the processing

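Of 165 alternatives for counts of called members and for ratios, 136 kept the direction and the side of the threshold (for counts, stayed within 1.5 times), 4 lost and 1 gained a call, 23 moved and 1 reversed; of 649 for values of single members, 571 kept both, 26 lost and 20 gained a call, and 32 reversed. Alternatives without CT24 were chosen after seeing the data. The cause was not tested for any change below except where given.

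In SHEP all 5 members were called as higher under every alternative tried. A fit with the replicate block (series number, which the labels share between conditions; differences between the series correlated across genes at r = 0.489 between conditions, with 2 pairs only) also called 5, at 0.54 to 2.14. In SKNAS 5 members, not 3, were called after median-of-ratios rescaling and with the library median as covariate, with or without CT24 (5 in each). For the difference between lines, 0 members were called with pseudocount 0.1, 0 after rescaling, 0 without SKNAS libraries under 3.8 and 2 without those under 3.3. For SHEP against SKNAS in MYC-OFF, 2 were called with pseudocount 0.1, and 0 with the covariate or without libraries under 3.3; leaving out single series gave 0 to 1, the 0 without series 2, where PER2 and PER3 fell under the filter. For the 24 h rhythm in SHEP MYC-OFF, 2 members were called without CT24, beside 0.0491% of genes. With a period of 26 h, and in another fit without trend removal, 2 members were also called. With 1 series alone, where fewer samples remain, 0 (0 to 0) were called. For drift, 1 member was called in SHEP MYC-ON after rescaling and with the covariate, 1 to 2 with single series left out, and 0 to 1 in SHEP MYC-OFF. The oscillator in SKNAS MYC-OFF called 0 members on the log2 scale, 2 after rescaling and 2 without CT24. Of all genes it called 903 of 18794, 1026 of 18794 and 748 of 18265 in these fits. Where a count above has no share of all genes beside it, it describes the members only.

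Summed PER over summed CRY in SHEP ran from -0.37 without series 1 (called) to 0.0617 without series 2 (reversed). In SKNAS it was 0.36 without libraries under 3.3 and 0.52 without CT24, and PER2 to PER1 and PER3 to PER1 were 0.12 and 0.39 with 1 TPM added to each term, none called.

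Single values changed sign as follows. For the difference between lines, PER2 was 0.0070 after rescaling, 0.0899 with the covariate and 0.45 without libraries under 3.8, where CRY2 was 0.27. For SHEP against SKNAS in MYC-OFF, CRY1 was 0.0376 after rescaling, 0.21 with the covariate, and 0.16 and 0.24 without libraries under 3.3 and 3.8; CRY2 was -0.0131 with pseudocount 0.1, -0.0283 without CT24 and -0.0382 without series 1, where PER1 was -0.0164. For drift without CT24, PER1 and PER2 were -0.0557 and 0.0287 in SHEP MYC-OFF, PER1 and PER3 were -0.19 and -0.0680 in SHEP MYC-ON, and PER1, PER3 and CRY1 were -0.52, -0.22 and -0.22 in SKNAS MYC-ON. In SHEP MYC-ON, PER1 was -0.0721 with the covariate and -0.18 (series 2) to 0.52 (series 1) in single series, and PER3 -0.0267 to 0.0711. In SKNAS MYC-OFF, PER1 was 0.22 with the covariate. In SKNAS MYC-ON, PER2 and CRY2 were 0.0810 and 0.10 after rescaling, 0.20 and 0.17 with the covariate, and 0.11 and 0.0060 without libraries under 3.3; with the covariate and without CT24, PER1, PER2 and CRY2 were -0.0526, 0.12 and 0.0773. Depth is unknown for TPM and set no limit that could be stated.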
